A study of Homo sapiens with 4 samples.

Results

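The genes described here are those of the first 60 Mb of human chromosome 12 with enough reads to be measured. Their members were the 455 gene names whose annotated exons all lay on chromosome 12, whose last base was at or before position 60000000 of GRCh38, and whose raw counts summed to 40 or more over 4 libraries. They were taken from 61471 gene names in all, of which 16143 had 40 or more counts. Within the same stretch 1159 further gene names had fewer counts, 733 of them 0. By the reference annotation 332 members were protein-coding genes, 57 pseudogenes and 21 noncoding genes, and 45 had no match there. The stretch was chosen on the change between the 2 groups in these same libraries, and its members by their summed counts, so counts and medians over the stretch are a description with no test. Tests of single genes come from a fit over all genes, and their p-values do not support the choice of the stretch.

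The libraries came from MDA-MB-231, a human triple-negative breast cancer line, of genotype WT and transfected with H2B-EGFP and CMV-RFP. H2B-EGFP is a histone fused to a green fluorescent protein, and CMV-RFP names a red fluorescent protein under the promoter of a virus. The EGFP positive group (2 libraries) carried the status of no increased extravasation and the EGFP negative group (2 libraries) that of increased extravasation, the passage of cells out of a vessel. The EGFP state and the extravasation status changed together, and the effects of the 2 cannot be told apart. The title of the series names polyploidy, but the labels gave neither group a ploidy, nor did they tell whether libraries of the same group were grown apart. The p-values below therefore rest on the spread among these libraries, and that spread may be technical only. The smallest exact two-sided permutation p for 2 against 2 libraries is 0.33.

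A human cell normally carries a pair of each autosome, and cancer lines often carry other numbers of whole chromosomes, arms or segments. RNA from genes of a gained or lost segment commonly follows the number of copies, with exceptions gene by gene. The short arm of chromosome 12 and the first part of its long arm hold genes of sugar breakdown (GAPDH, TPI1), a natural killer cell receptor cluster, the type II keratin cluster, the HOXC cluster and cell cycle genes such as CDK4. The deposited files hold RNA counts only, and copy number was not measured here.

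The promoters of 8 genes are shown so that the places on the chromosome and the kinds of change described below can be seen together. TNFRSF1A (chr12:6342127-6342326, minus strand), NCAPD2 (chr12:6493852-6494051, plus strand), EMP1 (chr12:13196476-13196675, plus strand) and TMBIM6 (chr12:49741307-49741506, plus strand) were members called higher at 4 places of the stretch. LIMA1 (chr12:50283571-50283770, minus strand) was a member called lower, and KRT85 (chr12:52367532-52367731, minus strand) a hair keratin called higher. TBC1D15 (chr12:71839509-71839708, plus strand) was the gene at which the fitted step ended, and E2F7 (chr12:77065620-77065819, minus strand) was a gene called lower beyond that step. Each run holds the 200 bases that end 50 bases before the RefSeq start, written 5′ to 3′ on the gene's strand, from RefSeq on GRCh38.p14. Capitals mark 4 motifs on either strand. The GC box was searched as GGGCGG. The CCAAT box was searched by the letters of its name. The TATA box was searched as TATAAA. An E-box was searched in the form bound by MYC and its relatives, which reads CACGTG. In E2F7 a CCAAT box and a GC box overlap.
TNFRSF1A: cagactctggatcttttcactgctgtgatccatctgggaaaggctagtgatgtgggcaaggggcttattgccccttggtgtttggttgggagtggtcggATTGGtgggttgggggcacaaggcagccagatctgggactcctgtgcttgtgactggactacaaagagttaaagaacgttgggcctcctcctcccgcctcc
NCAPD2: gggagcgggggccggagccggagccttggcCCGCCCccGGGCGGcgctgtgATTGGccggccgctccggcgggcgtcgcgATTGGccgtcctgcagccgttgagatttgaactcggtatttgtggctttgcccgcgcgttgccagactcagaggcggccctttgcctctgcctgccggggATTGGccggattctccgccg
EMP1: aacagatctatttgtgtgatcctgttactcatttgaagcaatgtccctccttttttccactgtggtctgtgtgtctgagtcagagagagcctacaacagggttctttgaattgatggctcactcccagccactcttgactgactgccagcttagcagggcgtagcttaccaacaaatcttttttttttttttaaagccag
TMBIM6: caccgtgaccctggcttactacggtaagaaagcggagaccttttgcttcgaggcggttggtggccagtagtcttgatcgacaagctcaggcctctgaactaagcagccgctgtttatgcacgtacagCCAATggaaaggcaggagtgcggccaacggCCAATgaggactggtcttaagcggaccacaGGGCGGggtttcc
LIMA1: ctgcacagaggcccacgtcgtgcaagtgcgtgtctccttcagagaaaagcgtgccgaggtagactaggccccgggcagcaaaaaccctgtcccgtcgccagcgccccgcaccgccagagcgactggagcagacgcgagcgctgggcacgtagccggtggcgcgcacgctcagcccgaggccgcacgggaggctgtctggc
KRT85: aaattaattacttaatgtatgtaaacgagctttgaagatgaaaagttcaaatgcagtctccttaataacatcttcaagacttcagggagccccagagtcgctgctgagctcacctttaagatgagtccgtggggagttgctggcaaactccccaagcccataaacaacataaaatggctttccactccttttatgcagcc
TBC1D15: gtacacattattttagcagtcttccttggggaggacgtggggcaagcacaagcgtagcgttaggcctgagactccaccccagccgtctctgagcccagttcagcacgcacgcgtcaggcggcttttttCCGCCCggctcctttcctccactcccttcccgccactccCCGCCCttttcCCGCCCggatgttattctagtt
E2F7: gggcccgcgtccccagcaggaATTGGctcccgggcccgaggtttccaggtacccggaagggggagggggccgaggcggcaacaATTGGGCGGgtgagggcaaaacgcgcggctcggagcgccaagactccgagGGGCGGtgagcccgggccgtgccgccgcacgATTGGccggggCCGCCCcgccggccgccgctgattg

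Of the 453 members tested, 269 had a RefSeq promoter. Over the 250 bases before the start, a GC box stood in 68.0% of these 269 promoters, in 67.6% of the 10517 promoters of all tested genes and in 42.3% of all 27305 promoters. The CCAAT box stood in 35.7% of the members' promoters, against 35.3% for tested genes and 33.0% for all promoters. The TATA box was found in 7.1% of the members' promoters, 5.2% of those of tested genes and 11.1% of all. For the E-box these shares were 8.6%, 8.8% and 6.5%. These motifs thus stood in the members' promoters at shares within 2 percentage points of those in tested genes. Among the 119 members called higher with a promoter, the GC box stood in 70.6% and the CCAAT box in 44.5%. In the same promoters the TATA box stood in 4.2% and the E-box in 9.2%. These 119 were picked by the same contrast, called genes elsewhere were not counted, and no link of a motif to the change was tested. The printed promoters of EMP1 and KRT85, both members called higher, held none of the 4 motifs, nor did that of LIMA1, called lower. The printed runs leave out the last 50 bases before the start, which the shares above took in. A motif in those bases is therefore not seen in them. NCAPD2 held 2 GC boxes and 3 CCAAT boxes, and E2F7, called lower, held 3 of each.

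Each library gave 11445076 to 12635576 counts. H2BC11, a gene for histone H2B that served to check the labels, had 7733 and 7352 counts in the EGFP positive and 88 and 64 in the EGFP negative libraries. The markers of the line, VIM, CD44, AXL, EGFR and CAV1, each had over 400 CPM (counts scaled to a common library size), and the hormone receptor genes ESR1 and PGR had 0 to 2 counts and the epithelial cadherin CDH1 1 to 3. Of the other epithelial markers, ERBB2 had 80.6 to 99.2 CPM, and EPCAM had 153 and 148 counts in EGFP positive and 85 and 80 in EGFP negative libraries. Markers of other cells were low. The endothelial list of 3 genes summed to 0.955 to 1.04 CPM in EGFP positive and 3.21 to 3.69 CPM in EGFP negative libraries, where CDH5 was at 0 throughout and PECAM1 went from 9 and 9 counts to 39 and 43. The leukocyte markers PTPRC, CD3E and LYZ summed to 0.434 to 0.692 and 1.12 to 1.46 CPM, with CD3E at 0, and the fibroblast list of 4 genes to 21.6 to 24.0 and 14.3 to 22.9 CPM, with DCN at 0. Their part in the results below was not tested. In such bulk libraries, fewer cells with a transcript and less of it per cell cannot be told apart.

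RNA from the first 60 Mb of chromosome 12 made up a larger share of the EGFP negative libraries. The members held 2.56 and 2.558% of all counts where EGFP was positive and 3.175 and 3.179% where it was negative, group means of 2.559 ± 0.0014 and 3.177 ± 0.0028% (SD, n = 2). The groups did not overlap, and the Wilson 95% intervals, which cover counting error only, ran from 2.549 to 2.569% and from 3.165 to 3.189%. The ratio of the means was 1.24. Of the counts on chromosome 12 alone, the members held 42.244 and 42.086% in the former and 48.937 and 48.479% in the latter. The genes of chromosome 12 that were not members held 3.5 and 3.52%, against 3.313 and 3.378%, of all counts.

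Gene by gene, most members were higher in the EGFP negative libraries, with a small median change and a spread like that of other genes. Of 453 members tested, edgeR's quasi-likelihood test with Benjamini-Hochberg adjustment called 154 higher (34%), where 9.40% of all 16413 tested genes were called higher. It called 15 members lower (3.31%), where 9.46% of all genes were called lower and 18.9% in either direction. Both EGFP negative libraries lay above both EGFP positive libraries for 278 members, against 28.1% of all genes, and below them for 45, against 29.3%. The median log2 fold change of EGFP negative over EGFP positive was 0.295 (quartiles 0.046 and 0.511), a 1.23-fold difference, and 354 of 453 members (78.1%) lay above 0. The quartiles of all tested genes were -0.221 and 0.222. Over the 15555 tested genes of other chromosomes it was -0.008. The number of calls depended on the EGFP positive libraries: without EGFP positive library 1 the members called higher numbered 62 (4.78% of all genes) and those called lower 7 (4.36%), and without EGFP positive library 2 they numbered 66 (4.39%) and 4 (4.46%). Without EGFP negative library 2, 183 members were called higher and 29 lower (15.1% and 15% of all genes). DESeq2 called 107 higher and 7 lower (6.34% and 6.04% of all genes).

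The shift was alike in the libraries of a group. When each gene's log2 CPM was set against its mean over the 4 libraries, the median over the members was -0.13 and -0.142 in EGFP positive and 0.152 and 0.159 in EGFP negative libraries. The 4 pairings of an EGFP negative with an EGFP positive library gave member medians from 0.277 to 0.306. The 2 EGFP positive libraries set against each other gave 0.004, and the 2 EGFP negative libraries 0.001. Over the other genes of chromosome 12, the per-library medians were 0.014 and 0.033 in EGFP positive and -0.023 and 0.002 in EGFP negative libraries.

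**Figure D1:**
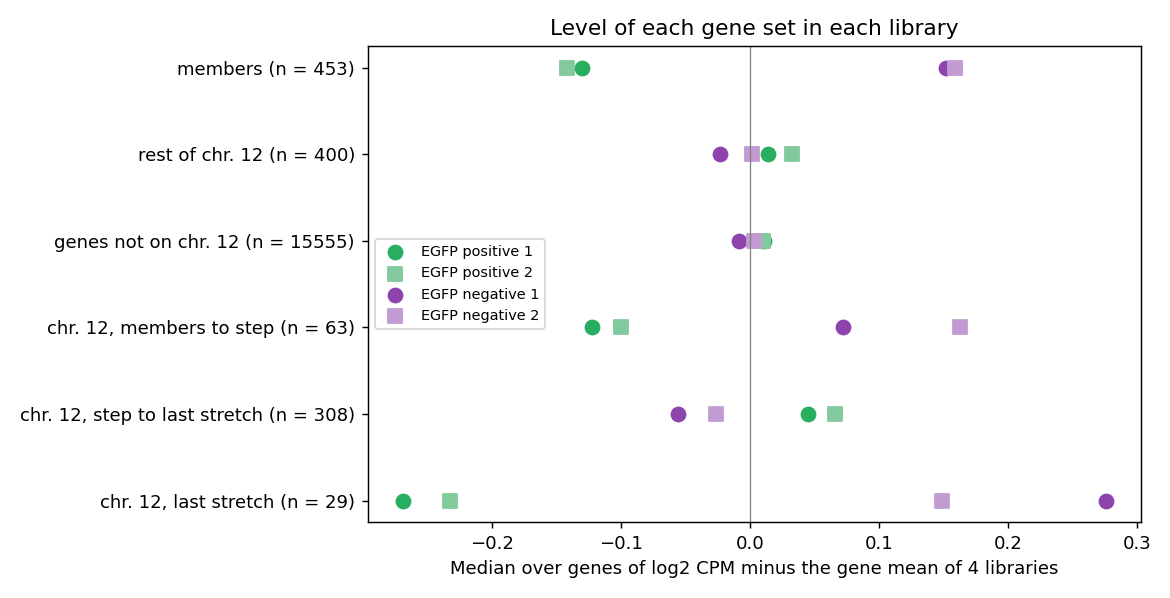
Median over the genes of each set of log2 CPM minus the gene's mean over the 4 libraries (x axis, log2), with a point for each library and a row for each gene set. The members sit at -0.142 and -0.13 in EGFP positive and at 0.152 and 0.159 in EGFP negative libraries, while genes not on chromosome 12 sit within 0.011 of 0.

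The members' median lay above that of every other whole chromosome, though a stretch chosen for its change is not like a whole chromosome. Median log2 fold changes of the other chromosomes ran from -0.179 for chromosome 18 to 0.058 for chromosome 22. The remaining 400 tested genes of chromosome 12 had a median of -0.034, with 58 called higher (14.5%) and 55 lower (13.8%). Over all tested genes these shares were 9.40% and 9.46%. Of 327 bins of 5 Mb across the genome with at least 20 tested genes, 11 had a median of 0.20 or more. Of those 11, 6 were among the 8 such bins of chromosome 12 before 60 Mb, and 1 was on chromosome 12 beyond it. Bins on other chromosomes reached the same levels: 0.392 on chromosome X from 50 to 55 Mb, and 0.383 and 0.249 on chromosome 1 from 5 to 10 Mb and from 10 to 15 Mb.

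**Figure D2:**
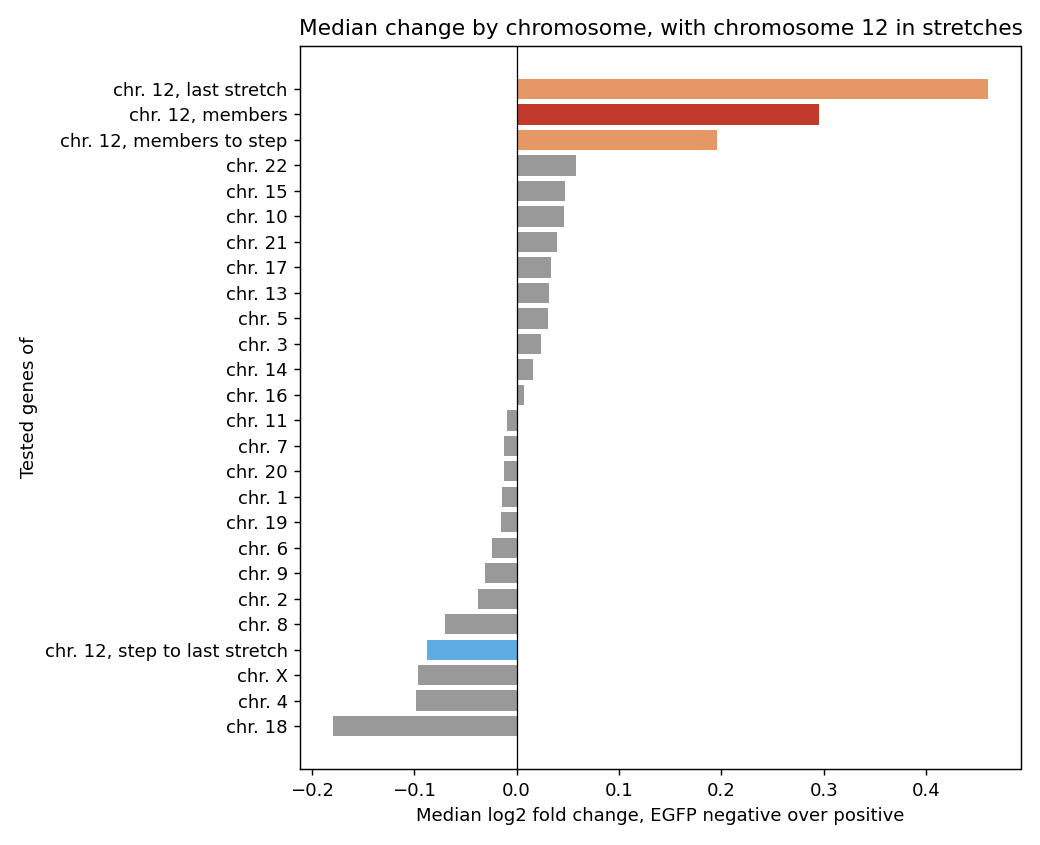
Median log2 fold change of EGFP negative over EGFP positive (x axis) of the tested genes of each chromosome, with chromosome 12 split into the members, the genes from the members to the fitted step, those from the step to the last stretch, and the last stretch. The members, at 0.295, lie above every other whole chromosome, the highest of which is chromosome 22 at 0.058. The last stretch of chromosome 12 lies above the members, at 0.46. The members are a stretch chosen for its change, unlike a whole chromosome.

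Along the stretch the shift ran from end to end without falling to 0. In a running median of 31 genes, all 443 windows centred before 60 Mb were above 0. The lowest, 0.079, was centred on a gene that starts at 31748100, and the highest, 0.509, on a gene that starts at 55966838. In bins of 5 Mb, the median log2 fold change was 0.139 over the first 39 genes, 0.349 from 5 to 10 Mb (76 genes) and 0.376 from 10 to 15 Mb (36 genes). It was 0.172, 0.213 and 0.305 in the next 3 bins, and 0.056 from 30 to 35 Mb (26 genes). Beyond the widest gap between members the bins stood at 0.253 from 40 to 45 Mb, 0.225 from 45 to 50 Mb (56 genes), 0.4 from 50 to 55 Mb (67 genes) and 0.343 from 55 to 60 Mb (83 genes). The bin from 35 to 40 Mb held 5 genes, with a median of 0.581. The low bin at 30 to 35 Mb had a median of 0.227 over its 15 protein-coding genes.

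The widest gap between members, 3.83 Mb, ran from the end of AK6P1 at 34249958 to the start of AK6P2 at 38078529. The 226 tested members before it had a median of 0.266, with 63 called higher (27.9%) and 7 lower (3.1%). The 227 after it had a median of 0.32, with 91 called higher (40.1%) and 8 lower (3.52%). Over all tested genes these shares were 9.40% and 9.46%. Around the gap, AK6P1 and AK6P2, processed copies of a kinase gene whose reads can be shared with it, had log2 fold changes of 0.59 ± 0.3 and -0.47 ± 0.36 (SE), neither called. ALG10 and ALG10B, a pair of similar glucosyltransferase genes on either side, were at 0.4 ± 0.27 and 0.58 ± 0.22, also not called. CPNE8 (38652203 to 38907430), a calcium-dependent phospholipid-binding copine, was at 13.1 and 15.3 CPM in EGFP positive and 26.6 and 34.2 CPM in EGFP negative libraries. The groups did not overlap, and CPNE8 rose 2.14-fold (log2 fold change 1.1 ± 0.16, adjusted p = 0.00021).

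**Figure D3:**
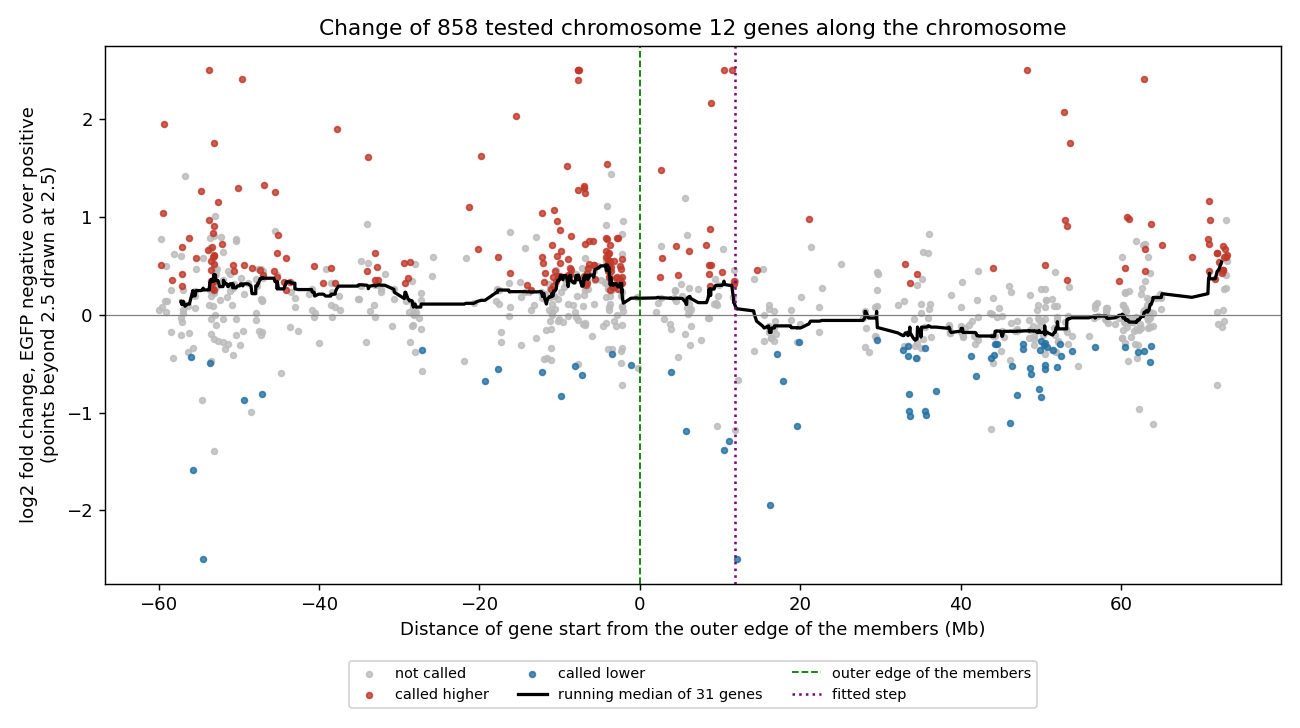
Log2 fold change of EGFP negative over EGFP positive (y axis) for the 858 tested genes of chromosome 12 against the distance of the gene's start from the outer edge of the members (x axis, Mb), with a running median of 31 genes. The running median stays above 0 up to the edge and on to the fitted step, drops below 0 beyond it, and rises again at the far end.

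The outer edge of 60 Mb was not where the shift ended. A single step fitted by least absolute deviation to all 858 tested genes of chromosome 12 placed it after TBC1D15, which ends at 71927248, with a median of 0.289 over the 521 genes before it and -0.065 over the 337 after it. Each of the 4 pairings of libraries from the 2 groups gave this same last gene. The 63 genes between 60 Mb and the step had a median of 0.196, with 18 called higher (28.6%) and 4 lower (6.35%). Over all tested genes these shares were 9.40% and 9.46%. The running median first fell below 0 at a gene that starts at 74274952. With protein-coding genes alone the step came after CAPS2, at 75.3 Mb, with medians of 0.328 over 380 genes and -0.073 over 253, so that these fits place the end between 71.9 and 75.3 Mb.

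The 3 tested genes just after the step had few counts. MRS2P2, a pseudogene within TBC1D15, was at -1.17 ± 0.54 and TRHDE-AS1 at -0.67 ± 0.66, neither called, and ENSG00000258115, with 0 to 1.3 CPM in the 4 libraries, was called lower (-3.02 ± 0.82, adjusted p = 0.019). With a stricter filter on low counts the step came later, at 74.55 Mb. RAB21 (71754863 to 71800286), a small GTPase of endosomes, was at 67.7 and 66.5 CPM in EGFP positive and 80.7 and 85.7 CPM in EGFP negative libraries, and rose 1.24-fold (log2 fold change 0.31 ± 0.09, adjusted p = 0.031). TBC1D15, a GTPase-activating protein, was at 29.1 and 29.1 CPM and 34.1 and 40.1 CPM, without overlap (0.35 ± 0.12, adjusted p = 0.057, not called). ATXN7L3B, which starts at 74537835, was at 59.4 and 57.9 CPM and 79.5 and 82.3 CPM and rose (0.46 ± 0.09, adjusted p = 0.0031). GLIPR1 (75480755 to 75503863) was at -0.27 ± 0.11 and NAP1L1, a histone chaperone, at -0.18 ± 0.08, neither called. E2F7 (77021248 to 77065569), a repressor of cell cycle genes, went from 179.7 and 179.0 CPM to 140.3 and 132.0 CPM and fell (log2 fold change -0.4 ± 0.08, adjusted p = 0.0037). NAV3, a microtubule-associated protein gene that starts at 77830894, went from 49.9 and 58.4 CPM to 33.2 and 34.7 CPM and also fell (-0.67 ± 0.11, adjusted p = 0.00081). Before the step, the overlapping neighbours TSPAN8 and LGR5 moved apart: TSPAN8, a tetraspanin, fell from 14.1 and 12.8 CPM to 5.22 and 5.83 CPM, and LGR5, a receptor of R-spondins, rose from 8 and 1 counts to 43 and 61. Counting without strand could not separate reads from the stretch that these 2 genes share.

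Beyond the step most of the chromosome lay below the members' level. The 308 tested genes between the step and 130 Mb had a median of -0.087, with 23 called higher (7.47%) and 51 lower (16.6%). Over all tested genes these shares were 9.40% and 9.46%. In bins of 5 Mb the median was -0.158 from 75 to 80 Mb (24 genes), -0.305 from 90 to 95 Mb (20 genes), -0.2 from 100 to 105 Mb (34 genes) and -0.03 from 120 to 125 Mb (79 genes). Bins with few genes stood higher, at 0.229 from 80 to 85 Mb (6 genes) and 0.654 from 125 to 130 Mb (2 genes). The 29 genes after 130 Mb had a median of 0.46, with 17 called higher (58.6%) and 0 lower. In these 29 genes the per-library medians were -0.269 and -0.232 in EGFP positive and 0.276 and 0.149 in EGFP negative libraries.

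The classes of members differed in their medians. The 332 protein-coding members had a median log2 fold change of 0.338, with 145 called higher (43.7%), 10 lower (3.01%) and 281 (84.6%) above 0. Over all 12060 protein-coding genes tested, 11.5% were called higher, 11.4% were called lower and 50.7% lay above 0. The 298 protein-coding genes on the rest of the chromosome had a median of -0.041, with 46 called higher (15.4%) and 48 lower (16.1%). The 56 pseudogene members tested had a median of -0.004, with 2 called higher (3.57%) and 3 lower (5.36%). All 2269 pseudogenes tested had a median of -0.045, with 3.09% called higher and 3.61% lower. Reads of a processed pseudogene can come from its parent gene on another chromosome. The 21 noncoding members had a median of 0.305 at low counts, and 3 were called higher (14.3%) and 0 lower. The 44 tested members with no match in the reference had a median of 0.128, with 4 called higher (9.09%) and 2 lower (4.55%). Over all tested genes 9.40% were called higher and 9.46% lower. Split into 3 groups of 151 by total count, the members had medians of 0.295, 0.26 and 0.306 from the lowest to the highest counts. The number called higher went from 18 (11.9%) to 46 (30.5%) to 90 (59.6%). All tested genes were not split by count in this way. Their 9.40% spans all count levels and cannot be set beside a single group.

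Protein-coding members that start from neighbouring promoters were compared as pairs. Within 500 bases there were 15 such head-to-head pairs on opposite strands. In 12 of them both genes lay above 0, in 3 both were called higher, in 8 a single gene was, and in 4 neither was. Over all 332 protein-coding members 84.6% lay above 0 and 43.7% were called higher. The pairs were not tested against other pairs of members. FOXM1, a mitotic transcription factor, and RHNO1, a DNA damage response gene, start 25 bases apart. FOXM1 was at 305.0 and 305.0 CPM in EGFP positive and 376.0 and 373.0 CPM in EGFP negative libraries, and RHNO1 at 42.4 and 35.6 CPM and 63.7 and 62.4 CPM. Neither gene's groups overlapped, with log2 fold changes of 0.3 ± 0.07 (adjusted p = 0.013) and 0.69 ± 0.11 (adjusted p = 0.00053). CBX5, the heterochromatin protein HP1 alpha, rose (0.51 ± 0.1, adjusted p = 0.0021), while its neighbour HNRNPA1, a splicing factor that starts 71 bases away, was at 0.11 ± 0.08 (adjusted p = 0.37).

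Genes of sugar metabolism lay together mainly on the short arm. Of 8 tested members of this list, 5 were called higher and 0 lower. The list's median log2 fold change was 0.639, beside 0.295 for all members and -0.003 for all tested genes. The counts of this list and those below stand beside 43.7% of protein-coding members called higher and 3.01% called lower. Over all tested genes these shares were 9.40% and 9.46%. No list was tested as a set. GAPDH, the glycolytic dehydrogenase (6534517 to 6538374), was at 1746 and 1716 CPM in EGFP positive and 2542 and 2532 CPM in EGFP negative libraries. Its groups did not overlap, and it rose 1.47-fold (log2 fold change 0.55 ± 0.07, adjusted p = 5.1e-05). TPI1, triosephosphate isomerase, went from 436.0 and 414.0 CPM to 663.0 and 632.0 CPM and rose 1.52-fold (adjusted p = 6.2e-05). ENO2, the neuronal enolase, rose 1.88-fold from 78.7 and 68.1 CPM to 145.0 and 131.0 CPM (adjusted p = 2.1e-05). The glucose transporter SLC2A3 rose 1.65-fold (adjusted p = 0.0011) and the inositol transporter SLC2A13 1.59-fold (adjusted p = 0.019). PFKM, a phosphofructokinase, and LDHB, a lactate dehydrogenase subunit, were at 0.16 ± 0.09 and 0.23 ± 0.1 and were not called.

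**Figure D4:**
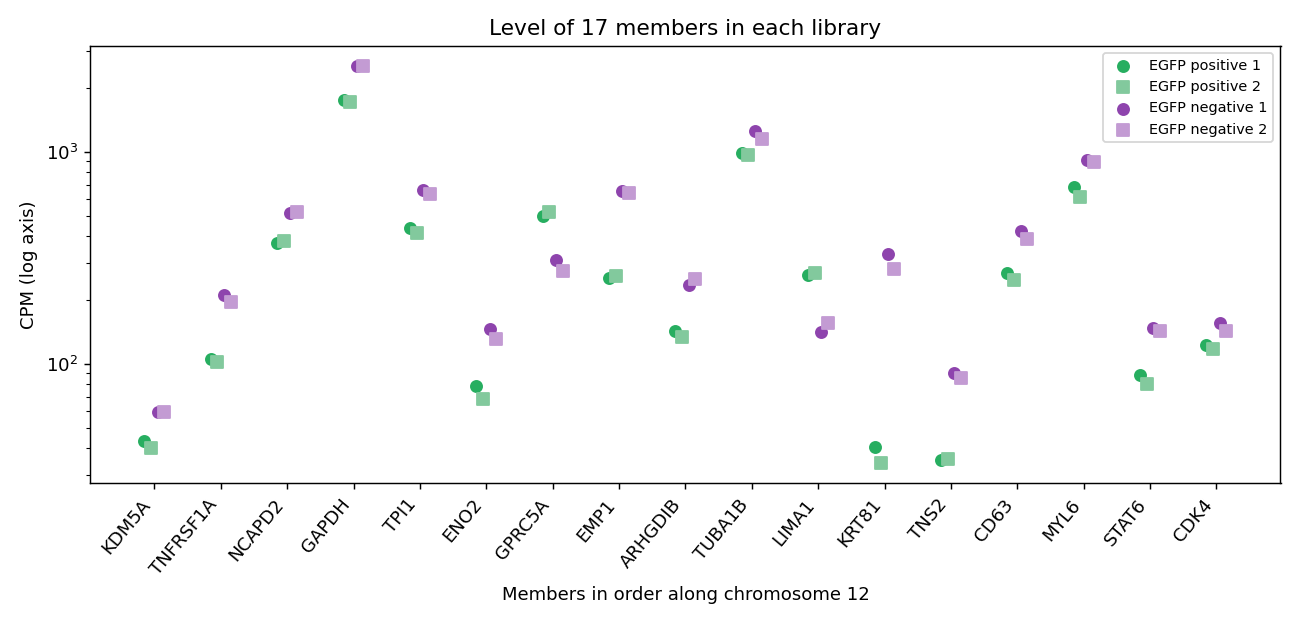
Level in CPM (y axis, log scale) of 17 members in each of the 4 libraries, in order along the chromosome (x axis). GPRC5A and LIMA1 lie lower in both EGFP negative libraries, and the other 15 lie higher in both.

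Members of a mitochondrial list shifted by about the amount of all members. The list held genes of the respiratory chain and mitochondrial translation, and also CS and SHMT2, which belong to neither. Of 9 tested, 7 were called higher and 0 lower (9.40% and 9.46% of all genes), with a median of 0.287. ATP5F1B, the catalytic beta subunit of ATP synthase, went from 809.0 and 764.0 CPM to 968.0 and 950.5 CPM (log2 fold change 0.29 ± 0.07, adjusted p = 0.012). NDUFA9, a subunit of complex I, was at 14.7 and 14.2 CPM and 23.5 and 19.7 CPM (0.58 ± 0.15, adjusted p = 0.014). Among 14 members for RNA binding and translation 7 were called higher and 0 lower (9.40% and 9.46% of all genes). Their median was 0.271. PTMS, on this list though a small acidic protein of chromatin, rose 1.79-fold from 173.0 and 157.0 CPM to 314.0 and 274.0 CPM (adjusted p = 2e-05). EIF4B, a translation initiation factor, rose 1.32-fold (adjusted p = 0.0044), and DDX47, a helicase of ribosome assembly, was at -0.21 ± 0.09 and was not called.

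Among 17 members for the cell cycle, replication and mitosis, 10 were called higher and 1 lower (9.40% and 9.46% of all genes). Their median was 0.304. NCAPD2, a condensin subunit that compacts mitotic chromosomes, was at 371.0 and 381.0 CPM in EGFP positive and 515.0 and 521.0 CPM in EGFP negative libraries. The groups did not overlap, and NCAPD2 rose 1.38-fold (log2 fold change 0.46 ± 0.07, adjusted p = 0.00056). TIMELESS, which protects replication forks, rose 1.41-fold (adjusted p = 0.0017), and RACGAP1, part of the spindle midzone complex of cytokinesis, 1.32-fold (adjusted p = 0.0028). CDK4, the G1 kinase, went from 123.0 and 117.0 CPM to 156.0 and 143.0 CPM (0.32 ± 0.09, adjusted p = 0.019). CDK2, which starts at 55966821, was at 0.27 ± 0.09 (adjusted p = 0.055), and the inhibitor gene CDKN1B at 0.16 ± 0.1 (adjusted p = 0.31). CCND2, a G1 cyclin, was the member called lower, from 28 and 39 counts to 8 and 15 (log2 fold change -1.59 ± 0.42, adjusted p = 0.017).

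Chromatin regulators and transcription factors were called higher in 13 of 22 tested members and lower in 0 (9.40% and 9.46% of all genes). Their median was 0.435. SMARCD1 and SMARCC2, subunits of the SWI/SNF remodelling complex, rose 1.44-fold and 1.38-fold (adjusted p = 0.0009 and 0.0014). KDM5A, a histone H3 lysine demethylase that starts at 280057, was at 43.0 and 40.2 CPM in EGFP positive and 59.4 and 59.4 CPM in EGFP negative libraries (0.51 ± 0.1, adjusted p = 0.0026). SP1, which binds GC boxes, rose 1.34-fold (adjusted p = 0.0037). CHD4 and KMT2D, a remodelling ATPase and a histone methyltransferase, were at -0.04 ± 0.12 and 0.02 ± 0.09, not called. Of the HOXC cluster a single gene, HOXC6, was a member, at 1.61 to 2.34 CPM in all 4 libraries and not called, and 9 of the 10 listed HOXC genes had under 40 counts.

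Surface, adhesion and signalling members held rises and falls. Of 11 tested members for integrins, tetraspanins and adhesion, 6 were called higher and 2 lower (9.40% and 9.46% of all genes). Their median was 0.363. EMP1, a tetraspan membrane protein of epithelia (13196723 to 13219941), was at 254.0 and 259.0 CPM in EGFP positive and 652.0 and 639.0 CPM in EGFP negative libraries. The groups were far apart, and EMP1 rose 2.52-fold (log2 fold change 1.33 ± 0.07, adjusted p = 2.9e-08). TNS2, a tensin that links integrins to actin, rose 2.49-fold from 35.3 and 35.7 CPM to 90.7 and 85.7 CPM (adjusted p = 5.7e-07), with an antisense gene whose reads could not be separated. The tetraspanins CD63 and CD9 rose 1.57-fold and 1.58-fold (adjusted p = 6.7e-05 and 7.9e-05). ITGA5, the fibronectin receptor's alpha subunit, rose 1.29-fold (adjusted p = 0.0067). PKP2, a desmosomal plakophilin, fell from 77.4 and 77.8 CPM to 59.7 and 61.3 CPM (-0.36 ± 0.09, adjusted p = 0.015), and CNTN1, a contactin, fell as well (-0.67 ± 0.21, adjusted p = 0.038). LRP1, a large endocytic receptor, was at 132.0 and 143.0 CPM and 149.0 and 125.0 CPM, and its groups overlapped.

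Of 21 tested members for growth factor, RAS and hormone signalling, 7 were called higher and 2 lower (9.40% and 9.46% of all genes). Their median was 0.405. TNFRSF1A, the main receptor of tumour necrosis factor, was at 105.0 and 102.0 CPM in EGFP positive and 209.8 and 196.0 CPM in EGFP negative libraries. It rose 1.96-fold without overlap (log2 fold change 0.97 ± 0.09, adjusted p = 2.7e-06). IGFBP6, a binding protein of insulin-like growth factor 2, rose 2.37-fold (adjusted p = 4.6e-06), and STAT6, which carries interleukin 4 signals, 1.73-fold (adjusted p = 3.5e-05). RARG, a retinoic acid receptor, went from 24.4 and 25.3 CPM to 42.3 and 40 CPM (0.73 ± 0.11, adjusted p = 0.00047). The nuclear receptor of vitamin D, VDR, fell from 16.5 and 19.5 CPM to 13.2 and 10.9 CPM (-0.58 ± 0.16, adjusted p = 0.023). GPRC5A, an orphan receptor induced by retinoic acid, fell 1.75-fold, from 497.0 and 517.0 CPM to 307.0 and 273.0 CPM (-0.81 ± 0.08, adjusted p = 1.1e-05).

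Among 13 members for tubulin, actin and motors 7 were called higher and 1 lower (9.40% and 9.46% of all genes). Their median was 0.303. TUBA1B, an alpha tubulin gene, was at 989.0 and 964.0 CPM in EGFP positive and 1247.0 and 1153.0 CPM in EGFP negative libraries (0.3 ± 0.07, adjusted p = 0.011). MYL6, a myosin light chain, rose 1.4-fold (adjusted p = 0.00056), and ARHGDIB rose 1.76-fold from 143.0 and 133.0 CPM to 235.0 and 250 CPM (adjusted p = 1.2e-05). LIMA1, which crosslinks actin filaments, was at 263.0 and 267.0 CPM in EGFP positive and 141.0 and 156.0 CPM in EGFP negative libraries. Its groups were well apart, and it fell 1.78-fold (log2 fold change -0.84 ± 0.08, adjusted p = 1e-05). Alpha tubulin genes are near-identical in sequence, so reads may be shared among TUBA1A, TUBA1B and TUBA1C.

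The members for apoptosis, autophagy and the lysosome counted 4 called higher and 0 lower of 9, with a median of 0.402. Those for amino acids, lipids and transport counted 5 and 0 of 12, with a median of 0.297. Over all genes 9.40% were called higher and 9.46% lower. TMBIM6, a BAX inhibitor of the endoplasmic reticulum, went from 532.0 and 556.0 CPM to 712.0 and 725.0 CPM (0.4 ± 0.07, adjusted p = 0.0014). LRRK2, a large kinase active at lysosomes, was low, at 1.04 and 2.34 CPM and 5.14 and 5.31 CPM, and rose 3.08-fold (adjusted p = 0.0046). PLBD1, a phospholipase B-like protein, rose 2.38-fold from 5.45 and 5.56 CPM to 11.6 and 14.7 CPM (adjusted p = 0.00053). Of 29 listed C-type lectin and killer cell receptor genes, 27 had under 40 counts. Of the 2 tested members, CLEC2B rose from 1.64 and 2.69 CPM to 4.98 and 5.74 CPM (adjusted p = 0.0081). The other was at -0.05 ± 0.26 and was not called.

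**Figure D5:**
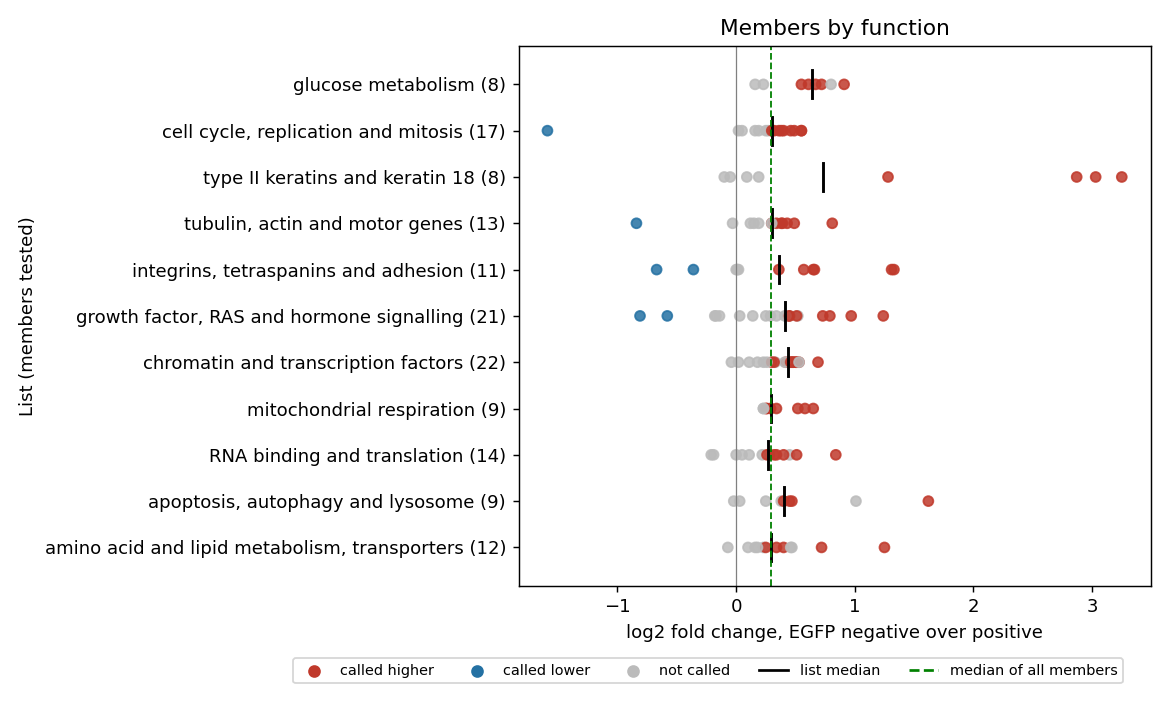
Log2 fold change of EGFP negative over EGFP positive (x axis) of the tested members of 11 lists by function (y axis, number tested in brackets), with the list median as a black bar and the median of all members as a dashed line. All 11 list medians drawn lie above 0, from 0.271 to 0.732, and KRT81, KRT83, KRT85 and LRRK2 stand farthest to the right. Left out are the HOXC list (1 member, at -0.219) and the C-type lectin and killer cell receptor list (2 members, median 0.627).

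The keratin cluster divided. Of 27 listed genes of type II keratins and keratin 18, 19 had under 40 counts. Of the 8 tested members, 4 were called higher and 0 lower (9.40% and 9.46% of all genes). All 4 were hair keratins, which build hair and nail: KRT81, KRT83, KRT85 and KRT86. KRT81 (52285913 to 52291534) was at 40.6 and 33.9 CPM in EGFP positive and 329.0 and 280.4 CPM in EGFP negative libraries, a rise of 8.18-fold (log2 fold change 3.03 ± 0.11, adjusted p = 6.1e-10). KRT83 rose 9.53-fold from 1.38 and 2.0 CPM to 17.3 and 15.1 CPM (adjusted p = 4.5e-07). KRT85 rose 7.31-fold from 0.519 and 0.347 CPM to 3.29 and 3.17 CPM (adjusted p = 0.00042), and KRT86 2.42-fold (adjusted p = 2.8e-05). KRT85 had 6 and 4 counts in EGFP positive and 41 and 37 in EGFP negative libraries. KRT83 had 16 and 23 counts and 215 and 176. Both reached the minimum of 40 summed counts only through the EGFP negative libraries, so the division of this list rests partly on that minimum. The pseudogene KRT87P, at 52250466 to 52258867 between KRT7 and KRT86, rose 5.29-fold (adjusted p = 4.3e-06). KRT81 and KRT86 overlap on opposite strands, and their GENCODE 29 transcripts share an identical run of 605 bases, so reads may be split between them. KRT81 and KRT83, 80.8% identical over their transcripts, share at most 95 identical bases in a run. KRT85 shares up to 98 with KRT81 and with KRT86, and KRT87P was not compared. Whether reads are shared among these genes too was not tested.

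The keratins of simple epithelia in the same cluster did not pass the test. KRT7 was at 410.5 and 381.0 CPM in EGFP positive and 397.0 and 368.0 CPM in EGFP negative libraries (-0.05 ± 0.08, adjusted p = 0.74). KRT8 was at 433.0 and 391.0 CPM and 497.0 and 379.6 CPM (0.09 ± 0.11, adjusted p = 0.64), and its partner KRT18 at 446.0 and 406.0 CPM and 420.1 and 377.0 CPM (-0.1 ± 0.08, adjusted p = 0.48). The groups overlapped for these 3 genes. KRT80 was at 0.19 ± 0.08 (adjusted p = 0.14).

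Outside the lists, the member with the largest rise was SCNN1A, the alpha subunit of the epithelial sodium channel (6346843 to 6377359). It was at 1.38 and 1.65 CPM in EGFP positive and 17.4 and 16.3 CPM in EGFP negative libraries, a rise of 11-fold (log2 fold change 3.47 ± 0.23, adjusted p = 1.6e-07). TMT1A, a thiol methyltransferase, rose 2.86-fold from 4.76 and 4.95 CPM to 12.5 and 15.4 CPM (adjusted p = 0.00011), and MMP19, a matrix metalloproteinase, 2.91-fold from 1.99 and 2.78 CPM to 8.03 and 5.83 CPM (adjusted p = 0.0016). SCNN1A and MMP19 each overlap a gene on the other strand.

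The 15 members called lower lay scattered from 4.1 to 58.9 Mb. Besides LIMA1, GPRC5A, CCND2, PKP2, CNTN1 and VDR they held STYK1, a receptor-like kinase, from 5.88 and 6.6 CPM to 3.21 and 3.6 CPM (-0.87 ± 0.25, adjusted p = 0.023), and RBMS2, an RNA-binding protein gene (-0.4 ± 0.1, adjusted p = 0.012). ANO2, a calcium-activated chloride channel, fell from 40 and 35 counts to 7 and 1 (-3.25 ± 0.53, adjusted p = 0.0007). LRIG3, a leucine-rich repeat membrane protein, went from 13.8 and 15.2 CPM to 10.6 and 9.68 CPM (-0.52 ± 0.16, adjusted p = 0.042). The pseudogenes RPL31P10, HSPA8P5 and BTBD10P1 and the unnamed genes ENSG00000257674 and ENSG00000258021, with log2 fold changes from -0.61 to -0.43, made up the rest.

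At the thresholds of the rule the members were as follows. The last members before 60 Mb were LRIG3, SLC16A7 (a monocarboxylate transporter, 0.18 ± 0.12) and ENSG00000237176 (-0.54 ± 0.2), which ends at 59812576. The first tested genes beyond were RPS3P6 (0.03 ± 0.14, from 62021570), USP15 (a deubiquitinase, 0.12 ± 0.11) and MON2 (0.39 ± 0.13). The 3 members with the fewest counts had 40, 40 and 43 in all, and the 3 genes just under the minimum had 37 each, PTPN6 among them. The members ENSG00000287712 and NIFKP3, with 40 and 47 counts, were not tested because they did not pass the filter on low counts. Of the members named above, SCNN1A, LRRK2, KRT83 and KRT85 reached 40 counts only through the EGFP negative libraries. So did the 3 noncoding members called higher and further members not named here. The 154 members called higher thus include genes that passed the minimum only through the group where they were high. ANO2 and CCND2 reached it only through the EGFP positive libraries.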

How the data were processed

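Polyadenylated RNA of 4 MDA-MB-231 libraries was sequenced from stranded libraries, per the labels' protocols. The authors deposited raw counts per gene, made with featureCounts 2.0.1 per gene name from exons of GENCODE basic annotation 46, paired and without a strand option, per the file headers. The submitters' processing notes name Subread, GRCh37 and hg19, and the aligner is not given in the sources used here. Coordinates matched GRCh38: 960 of 969 protein-coding genes of chromosome 12 (99.1%) had a start or end within 5000 bases of GENCODE 29. That says nothing of the build the reads were aligned to.

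Genes were kept by filterByExpr (minimum count 10, total 15), which left 16413. edgeR 4.0.16 (R 4.3.3) fitted group alone by quasi-likelihood over all 4 libraries with TMM factors of 0.9875 to 1.009, and p-values were adjusted over all genes at 0.05. A gene past that threshold is said to be called. CPM were computed here, and errors are SE unless stated. The step fit required 30 genes on each side. Scripts were tested on simulated data. Alternatives included DESeq2 1.42.0 and limma 3.58.1.

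Named genes were the 12 members with the largest change in each direction (at least 5 CPM in the higher group, no overlap), up to 4 called members per list by adjusted p, the 3 nearest each side of 60 Mb, the step and the widest gap, and the 5 with the highest counts. FOXM1, RHNO1, HNRNPA1, ATXN7L3B, GLIPR1, NAP1L1, E2F7, NAV3, LGR5, TSPAN8, PFKM, LDHB, SLC2A13, CDK4, CDK2, CDKN1B, CCND2, ANO2, PKP2, ITGA5, RARG, SP1, CHD4, KMT2D, LRP1, DDX47, KRT7, KRT8, KRT18 and KRT80 were named after their values were seen. The stretch, members and lists were chosen with earlier results of these data known. The value of 1 marker gene is not reported here.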

Additional observations from a re-analysis of the deposited data

How the results depend on the processing

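The member median log2 fold change stayed above 0 under every alternative run, at 0.31 with upper quartile scaling, 0.338 with protein-coding genes alone, 0.254 and 0.283 with an outer edge of 50 and 70 Mb, and from 0.284 to 0.315 without each library in turn. The step lay at 71.93 Mb with all libraries and without each library in turn. It lay at 74.55 Mb with the stricter low-count filter or 400 summed counts, at 75.33 Mb with GC content and gene length corrected or protein-coding genes alone, both chosen after seeing the data, and at 75 Mb by the first 5 Mb bin past 60 Mb under a median of 0.148, a level that 2 bins before 60 Mb were also under. Without each library in turn the members called higher numbered 62 to 183 and those called lower 4 to 29, while the shares of all genes called ran from 4.39 to 15.1% and from 4.36 to 15%. Those called lower numbered 7 with DESeq2 (6.04% of all genes). With no filter on low counts 117 were called higher and 11 lower, beside 3.76% and 3.81% of all genes. The ratio of count shares was 1.16 with the counts of chromosome 12 as the denominator.

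With the replicate number as a block, 198 members were called higher and 24 lower, while the shares of all genes called rose to 14% and 14.7%. Same-numbered libraries deviated together with a correlation of 0.114 over 2 pairs, which share only a number.

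Of 115 genes named here or used in the figures, 83 were called, and 47 of these lost their call under at least 1 alternative. Genes whose direction turned without 1 library ranged over the 4 such fits from -0.11 to 0.19 (RPS3P6), -2.35 to 0.12 (TRHDE-AS1), -1.17 to 0.02 (AK6P2), -0.11 to 0.01 (KRT7), -0.12 to 0.28 (KRT8), -0.09 to 0.01 (CHD4), -0.1 to 0.13 (KMT2D) and -0.13 to 0.12 (LRP1), and none of the 8 was called with all libraries. LRP1, at -0.0 there, was at 0.0 with RLE size factors and with DESeq2 and at 0.01 with upper quartile scaling. The cause of these changes was not tested.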
